A study of Mus musculus with 10 samples.

Results

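The collagens and the genes that cross-link and organise their fibrils were followed in RNA from mouse livers and liver tumours. The set was chosen by name: every protein-coding gene with a collagen chain symbol, the 5 lysyl oxidases, and 7 matrix genes that bind or arrange collagen (Fn1, Fbn1, Sparc, Postn, Lum, Bgn and Dcn). This gave 56 genes, 44 collagen chains and 12 others, of the 56748 genes in the deposited table. The rule itself used no measured value.

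RNA came from 4 normal livers of FVB wild-type mice, from 3 Akt/Nras tumours and from 3 Akt/Nras/Foxo1AAA tumours, which the sample labels write Akt/Nras/FoxoAAA. The labels give the host genotype as WT in all 10 samples, and describe the tumours as hepatocellular carcinomas made by injecting DNA into the tail vein under pressure, so that hepatocytes take it up. The Akt/Nras tumours carried the 2 oncogenes Akt and Nras, and the other tumours carried Foxo1AAA besides these. Foxo1AAA is a form of the transcription factor FOXO1 that AKT cannot switch off by phosphorylation. Ages, sexes, the promoters of the injected DNA and the time from injection to harvest were not given in the labels, nor was an empty-vector control among the samples analysed here. The normal livers were therefore not injected controls as far as the labels say.

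Collagens are trimers of chains wound around each other. Fibrillar collagens (types I, III and V) form the fibres of scar tissue, type IV forms the sheet of basement membranes, and type VI forms fine beaded filaments. Lysyl oxidases join collagen chains by covalent links outside the cell and so stiffen the matrix, while small leucine-rich proteoglycans coat fibrils and control their width. In liver, stellate cells and portal fibroblasts are the best known sources of fibrillar collagen, and hepatocytes are a known source of collagen XVIII and plasma fibronectin.

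Levels are FPKM, fragments per kilobase of gene over a library size set by the authors, as deposited. Whole reads could be recovered from these values, and numbered 13585055 to 17529948 in the normal livers, 16158825 to 21262035 in the Akt/Nras tumours and 15391726 to 20747209 in the Akt/Nras/Foxo1AAA tumours. The labels were borne out by Foxo1, at 77.9 to 125 FPKM in the Akt/Nras/Foxo1AAA tumours against 5.37 to 8.02 in all other libraries. The library size implied by the deposited values was 0.629 to 0.668 times these reads in normal liver. It was 1.002 to 1.06 times with Akt/Nras and 0.875 to 0.928 times with Akt/Nras/Foxo1AAA. How it was set was not given in the sources used here, which bears on every fold between groups, also between the tumours. FPKM totals differed by group, from 692010 to 743203 in normal liver, 349619 to 381653 in the Akt/Nras tumours and 413812 to 444893 in the Akt/Nras/Foxo1AAA tumours, so the scaling was repeated with all libraries brought to 1 total. That scaling moved the median log2 change over all tested genes from -0.07 to 0.70 for Akt/Nras over normal liver, then from -0.09 to 0.47 with Foxo1AAA added, and from -0.01 to -0.21 for Akt/Nras/Foxo1AAA over Akt/Nras. Summed hepatocyte markers ran from 72577 to 76645 FPKM in normal liver, 30226 to 32163 in the Akt/Nras tumours and 36216 to 48641 in the Akt/Nras/Foxo1AAA tumours. These sums carry the deposited scaling, and the FPKM totals of the same libraries also differed by group. As a share of recovered reads, the hepatocyte marker Alb took 5.30 to 5.99% in normal liver. It took 4.32 to 5.19% in the Akt/Nras tumours and 4.42 to 5.46% in the Akt/Nras/Foxo1AAA tumours. In sums from whole tissue, fewer cells of a type, less RNA per cell and the scaling cannot be told apart.

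Of the 56 genes, 32 reached 1 FPKM in at least 3 libraries and were tested, 21 of them collagen chains. The other 24 were not tested. These were 23 collagen chains and Loxl4, and only Loxl4 reached 1 FPKM in any library (1.24 in Akt/Nras replicate 1). No transmembrane collagen (Col13a1, Col17a1, Col23a1 and Col25a1) exceeded 0.762 FPKM, and Col19a1 was at 0 in all 10 libraries. Col11a1, a minor fibrillar chain best known from cartilage, had no read in any normal liver but averaged 0.399 FPKM in the Akt/Nras tumours (281 reads) and 0.286 in the Akt/Nras/Foxo1AAA tumours (181 reads). Set against a floor of 3 reads over all normal livers, that is at least 66.2-fold and at least 47.4-fold higher. Col20a1, also untested, went the other way, from a mean of 0.610 FPKM in normal liver (121 reads) to 0.0744 in the Akt/Nras tumours (21 reads). With Foxo1AAA added it averaged 0.187 FPKM (47 reads), and both tumour types lay wholly below normal liver.

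The tumours carried far more fibrillar and basement membrane collagen RNA than normal liver, and less Col18a1 and Col27a1. In Akt/Nras tumours 28 of the 32 tested genes rose and 3 fell, where 31.1% of all 12439 tested genes rose and 37.9% fell (limma, adjusted p under 0.05). In Akt/Nras/Foxo1AAA tumours the counts were again 28 and 3, where 26.8% of all tested genes rose and 36.5% fell. In each of these 31 genes no tumour library overlapped a normal liver, where 30.9% of all tested genes lay wholly higher and 37.4% wholly lower in the Akt/Nras tumours, and 27.9% and 37.5% in the Akt/Nras/Foxo1AAA tumours. In either direction 69% and 63.3% of all tested genes passed. Part of these counts was bound to come out high, since 16 of the 32 genes were below 1 FPKM in every normal liver and were tested only because they were higher in tumours. Among the 16 genes that reached 1 FPKM in a normal liver, 12 rose and 3 fell in each tumour type, and Col14a1 passed in neither. With all libraries brought to 1 total, 30 members rose and 2 fell in the Akt/Nras tumours, but 69.2% of all genes then rose and 13.8% fell; in the Akt/Nras/Foxo1AAA tumours 29 rose and 2 fell, where 61% of all genes rose and 13.5% fell.

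Between the tumours, several fibrillar and fibril-associated chains, Lox and Loxl2 were lower with Foxo1AAA in a fit that included the normal livers. Against Akt/Nras tumours, 11 of the 32 tested genes fell (34.4%, where 4.13% of all tested genes fell), and 1 rose, Col18a1 (7.93% of all tested genes rose). Those that fell were 5 of 7 tested fibrillar chains (Col1a1, Col1a2, Col3a1, Col5a1 and Col5a2), 3 of 4 tested fibril-associated chains (Col9a3, Col12a1 and Col16a1), Col8a1, and 2 of 4 tested lysyl oxidases (Lox and Loxl2). Col9a3 and Col12a1 would not have been tested without the Akt/Nras tumours, where they are higher, so their part in the count says little. None of the 3 type IV chains, 4 type VI chains, 4 matrix glycoproteins or 3 small leucine-rich proteoglycans tested passed as deposited. This depended on the scaling. With all libraries brought to 1 total, Col4a1, Col4a2, Col4a5, Col5a3, Col6a1, Col6a2, Col6a3, Fbn1, Fn1 and Postn also fell. Col6a5, Sparc and the proteoglycans did not, and 26% of all tested genes fell. With the 50 highest genes taken out of the totals, Col4a1, Col4a2, Col6a1 and Postn were added, where 9.96% of all tested genes fell. As deposited, the median log2 change over the 32 genes was -0.30, against -0.01 over all tested genes, and 25 of the 32 were negative.

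These calls borrow the spread of the normal livers. When limma was fitted to the 6 tumour libraries alone, none of the 12 passed, with adjusted p from 0.0599 for Lox to 0.127 for Col12a1, and 10 of all tested genes passed; at an unadjusted p under 0.05, 16 members differed, 15 of them lower. Lox, Col3a1 and Col5a2 stayed below 0.05 when any 1 of the 10 libraries was left out. Col5a1 lost its call only without Akt/Nras replicate 1, and Col18a1 only without Akt/Nras/Foxo1AAA replicate 2. Col1a1 kept its call in 2 of the 10 fits and Col12a1 in 1. In 16 of the 32 genes every Akt/Nras/Foxo1AAA tumour lay below every Akt/Nras tumour (50%, where 15.5% of all tested genes did so), and 5 of these did not pass the test: Col4a1, Col4a2, Col6a1, Col6a3 and Postn.

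**Figure D1:**
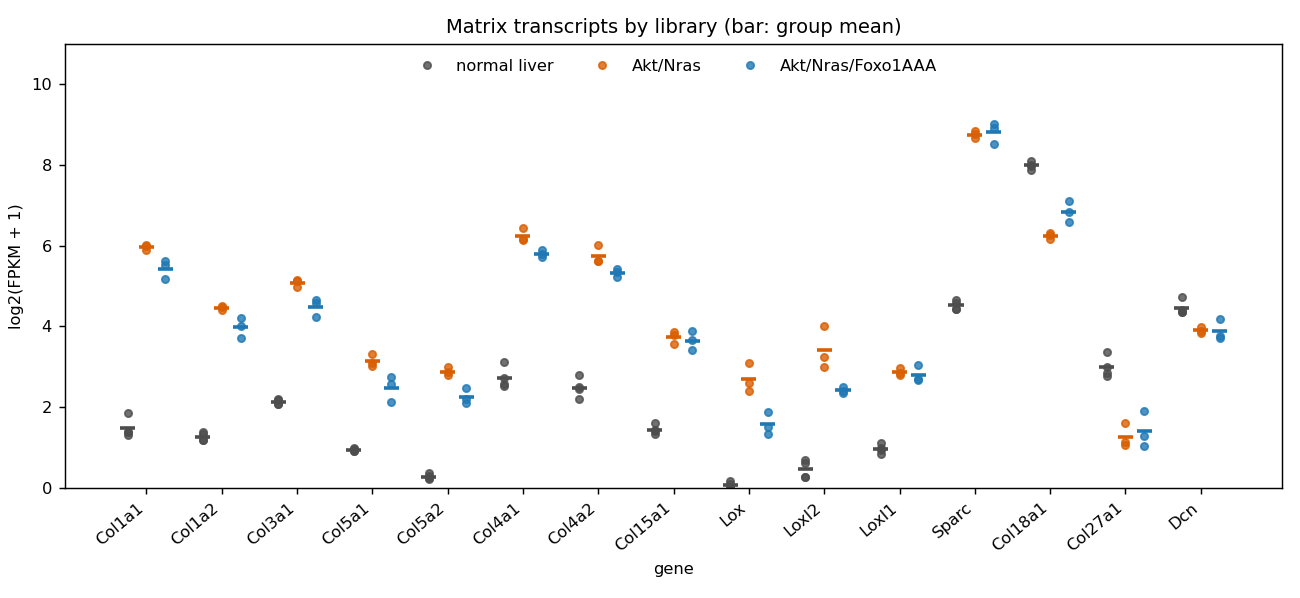
Each point is 1 library and the vertical axis is log2(FPKM + 1), for 15 members in 4 normal livers, 3 Akt/Nras tumours and 3 Akt/Nras/Foxo1AAA tumours. Col1a1 runs from 1.49 to 2.60 FPKM in normal liver against 34.8 or more in every tumour, while Col18a1 runs the other way, from 236 to 272 FPKM in normal liver against 136 or less in every tumour.

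Promoter sequence is shown for the genes with a window that differed between the tumours, because FOXO1 is a DNA-binding factor. RefSeq promoter windows of GRCm38.p6 were at hand for 40 of the 56 members (44 windows), among them 6 of the 12 that differed between the tumours. In the 250 bases before the start, the FOXO motif GTAAACA, read on both strands, was present in 3.17% of all 32851 windows and in 1 of the 44 member windows, that of Col6a1, which did not pass the test between the tumours. The SMAD motif CAGACA, also read on both strands, was present in 17.1% of all windows and in 10 of the 44 (22.7%), and it lay in windows of 5 of those 6 genes (Col1a2, Col3a1, Col5a1, Col8a1 and, at its downstream start, Col18a1, where the match lies in annotated exon). Col18a1 rose with Foxo1AAA while the others fell. Of the 20 tested members with a window, 6 held the motif. Lox, Loxl2, Col1a1, Col5a2, Col9a3 and Col12a1 had no window, and no test of the motif was made. AP-1 (TGANTCA) matched 6.75% of all windows and 1 member window (Col6a1), TEAD (ACATTCC) 3.25% and 1 (Col3a1), TATAAA 12.4% and 6, and CCAAT 33.9% and 13. Col3a1 held CAGACA 239 and 65 bases before its start, ACATTCC 169 before and TATAAA 117 before, while Col1a2, Col5a1 and Col8a1 held CAGACA 175, 36 and 103 bases before theirs. A match is a run of letters and not a measured binding site. The sequences run 5′ to 3′ on the gene's strand, from RefSeq, with matches in capitals and stretches that GENCODE M21 annotates as exon left out. For Col18a1, which has 2 RefSeq starts 52825 bases apart, the upstream one is shown, where only CCAAT matched, and the exon-free stretch of Col16a1 held no match.
Col3a1, chr1:45311288-45311537, plus strand: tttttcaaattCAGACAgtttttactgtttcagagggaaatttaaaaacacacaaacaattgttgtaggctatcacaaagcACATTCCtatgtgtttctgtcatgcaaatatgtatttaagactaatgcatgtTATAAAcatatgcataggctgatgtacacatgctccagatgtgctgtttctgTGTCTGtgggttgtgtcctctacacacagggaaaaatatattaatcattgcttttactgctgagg
Col1a2, chr6:4505370-4505492, plus strand: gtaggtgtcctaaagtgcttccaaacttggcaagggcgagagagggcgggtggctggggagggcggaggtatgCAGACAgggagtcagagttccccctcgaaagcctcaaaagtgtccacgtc
Col5a1, chr2:27886175-27886424, plus strand: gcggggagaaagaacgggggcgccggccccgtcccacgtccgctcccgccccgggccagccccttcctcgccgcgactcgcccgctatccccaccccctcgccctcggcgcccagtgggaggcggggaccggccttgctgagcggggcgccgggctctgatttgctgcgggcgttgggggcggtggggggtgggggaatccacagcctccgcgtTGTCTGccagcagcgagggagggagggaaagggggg
Col8a1, chr16:57754738-57754987, minus strand: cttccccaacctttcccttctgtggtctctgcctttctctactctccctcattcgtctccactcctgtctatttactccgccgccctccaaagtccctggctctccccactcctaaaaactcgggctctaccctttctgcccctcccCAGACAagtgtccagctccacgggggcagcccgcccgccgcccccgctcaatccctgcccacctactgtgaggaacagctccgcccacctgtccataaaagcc
Col16a1, chr4:130047590-130047661, plus strand: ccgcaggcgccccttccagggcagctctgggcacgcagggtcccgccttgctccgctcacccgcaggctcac
Col18a1, chr10:77166549-77166780, minus strand: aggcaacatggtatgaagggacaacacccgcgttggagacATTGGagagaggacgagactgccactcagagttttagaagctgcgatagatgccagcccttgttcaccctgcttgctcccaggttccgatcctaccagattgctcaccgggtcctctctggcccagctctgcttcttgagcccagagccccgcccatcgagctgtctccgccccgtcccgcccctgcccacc

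Type I collagen, the main protein of fibrous scar, held the member with the largest rise on the log2(FPKM + 1) scale in the Akt/Nras tumours, Col1a1 (4.48), while with Foxo1AAA added Sparc rose most (4.30 against 3.95 for Col1a1). Col1a1 (ENSMUSG00000001506) stood at 2.60, 1.61, 1.61 and 1.49 FPKM in the 4 normal livers. It stood at 64.0, 62.2 and 58.3 FPKM in the Akt/Nras tumours and at 34.8, 45.0 and 47.7 in the Akt/Nras/Foxo1AAA tumours. The 3 groups did not overlap, and normal liver was lowest by far. Col1a1 averaged 1.83 ± 0.52 FPKM (SD, n = 4) in normal liver, 61.5 ± 2.91 (n = 3) in the Akt/Nras tumours (33.7-fold) and 42.5 ± 6.78 (n = 3) in the Akt/Nras/Foxo1AAA tumours (23.3-fold), with limma adjusted p of 5.6e-09 and 1.79e-08. Between the tumours it was 30.9% lower with Foxo1AAA, a log2 change of -0.53 (SE 0.15) and an adjusted p of 0.0481, just under the threshold. Col1a2, which codes for the second chain of type I collagen, stood at 1.58, 1.27, 1.27 and 1.51 FPKM in normal liver, 21.4, 21.7 and 20.1 in the Akt/Nras tumours and 12.2, 15.0 and 17.4 in the Akt/Nras/Foxo1AAA tumours. It rose 15.0-fold and 10.5-fold against normal liver and was 29.5% lower with Foxo1AAA (limma adjusted p = 0.0253), again with no overlap.

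Col3a1 (ENSMUSG00000026043), the chain of type III collagen, which shares fibres with type I, was among the 3 members whose fall with Foxo1AAA outlasted every left-out library. It stood at 3.22, 3.52, 3.22 and 3.60 FPKM in normal liver, 30.6, 33.8 and 34.6 in the Akt/Nras tumours and 17.9, 22.9 and 24.1 in the Akt/Nras/Foxo1AAA tumours. It rose 9.74-fold and 6.38-fold against normal liver and was 34.4% lower with Foxo1AAA, a log2 change of -0.60 (SE 0.11, limma adjusted p = 0.0102). Type V collagen sits inside type I fibrils and sets their width. Col5a1 stood at 0.873 to 0.978 FPKM in normal liver, 8.86, 7.56 and 7.03 in the Akt/Nras tumours and 3.33, 4.91 and 5.64 in the Akt/Nras/Foxo1AAA tumours, 40.8% lower (limma adjusted p = 0.018). Col5a2 stood at 0.151 to 0.276, then 6.89, 5.88 and 6.23, then 3.25, 3.61 and 4.58 FPKM, 39.9% lower (limma adjusted p = 0.00993). Col5a3 did not pass between the tumours as deposited (mean 1.996 and 1.60 FPKM, limma adjusted p = 0.311). Col27a1 was the only fibrillar chain that fell in tumours. It stood at 5.82, 9.26, 6.93 and 6.21 FPKM in normal liver, 1.19, 2.05 and 1.08 in the Akt/Nras tumours and 1.04, 2.76 and 1.44 in the Akt/Nras/Foxo1AAA tumours, so both tumour types lay wholly below normal liver, by 4.90-fold and 4.04-fold, and overlapped each other (limma adjusted p between the tumours 0.735).

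The basement membrane chains were among the highest members in tumours. Col4a1, the most widely used type IV chain, stood at 7.69, 4.70, 5.54 and 4.94 FPKM in normal liver, 85.0, 70.5 and 70.1 in the Akt/Nras tumours and 54.0, 58.5 and 51.6 in the Akt/Nras/Foxo1AAA tumours. It rose 13.1-fold and 9.56-fold, with limma adjusted p of 1.68e-08 and 6.92e-08. Its partner Col4a2 rose 11.4-fold and 8.44-fold, from 3.55 to 5.95 FPKM in normal liver to 47.9 to 63.2 and 36.2 to 41.5 in the tumours. In both genes every tumour with Foxo1AAA lay below every one without it, but neither passed the test as deposited (limma adjusted p = 0.0808 and 0.105). The RefSeq starts of these neighbours lie 21 bases apart on opposite strands of chromosome 8, and whether reads there were assigned by strand was not given in the sources used here. Col4a5 rose from a mean of 0.298 FPKM to 3.43 and 2.01, with overlapping tumour groups (1.95, 4.45 and 3.87 against 2.35, 2.19 and 1.50; limma adjusted p = 0.144). The other 3 type IV chains stayed at or below 0.42 FPKM.

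Type VI collagen, which ties fibres to cells, also rose. The means of the 3 groups, in the order used above, were 2.02, 7.43 and 5.68 FPKM for Col6a1, 0.861, 3.85 and 3.02 for Col6a2, and 0.792, 4.71 and 4.00 for Col6a3. Col6a5 averaged 0.137, 1.28 and 1.34 FPKM. Col6a1 stood at 2.22, 2.14, 2.03 and 1.68 FPKM in normal liver, then 7.29, 6.68 and 8.32, then 4.87, 6.31 and 5.85. Col6a2 stood at 0.831, 0.817, 0.966 and 0.831, then 4.06, 3.11 and 4.37, then 2.59, 3.64 and 2.84. Normal liver lay lowest throughout, and the tumours overlapped for Col6a2 but not for Col6a1. Col6a3 stood at 0.814, 0.699, 0.812 and 0.844, then 4.20, 5.56 and 4.38, then 3.90, 4.17 and 3.94 FPKM. Col6a5 stood at 0.0998, 0.0829, 0.244 and 0.121, then 1.16, 1.14 and 1.55, then 1.40, 0.951 and 1.68. All 4 rose in both tumour types, between 2.81-fold (Col6a1 with Foxo1AAA) and 9.82-fold (Col6a5 with Foxo1AAA). As deposited none passed between the tumours, where limma adjusted p ran from 0.0804 to 0.903.

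Fibril-associated collagens attach to the surface of fibrils without forming any themselves. Col16a1 stood at 0.252 to 0.842 FPKM in normal liver, 10.7, 5.95 and 7.69 in the Akt/Nras tumours and 2.98, 3.93 and 4.98 in the Akt/Nras/Foxo1AAA tumours, 51.1% lower with Foxo1AAA (log2 -0.86, SE 0.21, limma adjusted p = 0.0286). Col12a1 stood at 0.0293 to 0.119, then 3.05, 1.40 and 1.20, then 0.586, 0.724 and 0.791 FPKM, 62.9% lower (limma adjusted p = 0.0435), and its highest value by far was that of Akt/Nras replicate 1. Col9a3 stood at 0.0289 to 0.0814, then 2.05, 2.45 and 2.47, then 1.74, 0.900 and 1.05 FPKM, 47% lower (limma adjusted p = 0.0239), with 8 reads over the 4 normal livers. Col12a1 reached 1 FPKM in the 3 Akt/Nras tumours alone and Col9a3 in 2 other libraries besides, so both passed the filter only through the group where they are high. In all 3 genes the tumour groups did not overlap. Col14a1, known from tendon and skin, passed in no comparison as deposited. It stood at 8.41, 9.04, 7.06 and 8.87 FPKM in normal liver, 5.53, 8.97 and 6.62 in the Akt/Nras tumours and 8.50, 7.73 and 6.19 in the Akt/Nras/Foxo1AAA tumours, and the 3 groups overlapped (limma adjusted p = 0.189, 0.417 and 0.761). With all libraries brought to 1 total it rose in both tumour types (log2 0.63 and 0.49, limma adjusted p = 0.00326 and 0.0152), and without Akt/Nras replicate 2 it fell in the Akt/Nras tumours (log2 -0.40, limma adjusted p = 0.0275). Col8a1, a short-chain network collagen of vessel walls, varied little within each tumour group, at 2.28, 2.40 and 2.29 FPKM in the Akt/Nras tumours and 1.65, 1.60 and 1.56 in the Akt/Nras/Foxo1AAA tumours, against 0.0400 to 0.120 in normal liver. It was 30.9% lower with Foxo1AAA (limma adjusted p = 0.0313).

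The 2 multiplexins, basement membrane collagens that also carry sugar chains, moved in opposite directions. Col18a1 (ENSMUSG00000001435), whose last domain is released as endostatin, was the most abundant collagen RNA of normal liver at 236, 272, 249 and 256 FPKM. It stood at 78.9, 70.6 and 75.6 FPKM in the Akt/Nras tumours and at 136, 113 and 94.8 in the Akt/Nras/Foxo1AAA tumours, so the groups were ordered with no overlap. It was 3.37-fold lower in the Akt/Nras tumours and 2.21-fold lower in the Akt/Nras/Foxo1AAA tumours than in normal liver (limma adjusted p = 3.79e-07 and 1.19e-05). Between the tumours it was 1.53-fold higher with Foxo1AAA, a log2 change of 0.59 (SE 0.12, limma adjusted p = 0.0162). The value sums over both starts of the gene. Of the 9 tested hepatocyte markers, 5 (Apoa1, Ttr, Cps1, Asgr1 and Hnf4a) also rose with Foxo1AAA, where 7.93% of all tested genes rose. Those calls too come from the fit that included the normal livers, with the deposited scaling. The part of that in the Col18a1 difference was not tested. Col15a1, known from vessel basement membranes, rose from 1.53, 2.04, 1.63 and 1.68 FPKM to 10.7, 12.8 and 13.6 in the Akt/Nras tumours (7.19-fold) and 9.61, 11.6 and 13.7 in the Akt/Nras/Foxo1AAA tumours (6.76-fold), and the tumours overlapped (limma adjusted p = 0.7).

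The make-up of collagen RNA changed with these shifts. Summed over the collagen chains, normal livers held 281 to 316 FPKM, Akt/Nras tumours 381 to 417 and Akt/Nras/Foxo1AAA tumours 335 to 355. Col18a1 alone was 83.9 to 86.4% of that sum in normal liver, 18.5 to 19.8% in the Akt/Nras tumours and 28.3 to 39.7% in the Akt/Nras/Foxo1AAA tumours. Without Col18a1 the sums were 40.3 to 45.1, 306 to 338 and 207 to 242 FPKM, so the 3 groups stood further apart. Fibrillar chains made up 4.9 to 5.57% of collagen RNA in normal liver, 32.6 to 35.6% in the Akt/Nras tumours and 21.7 to 30.7% in the Akt/Nras/Foxo1AAA tumours. Type IV chains made up 2.76 to 4.98%, 32.1 to 36.0% and 27.2 to 28.9%. A share within 1 library does not depend on how the libraries were scaled to each other.

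**Figure D2:**
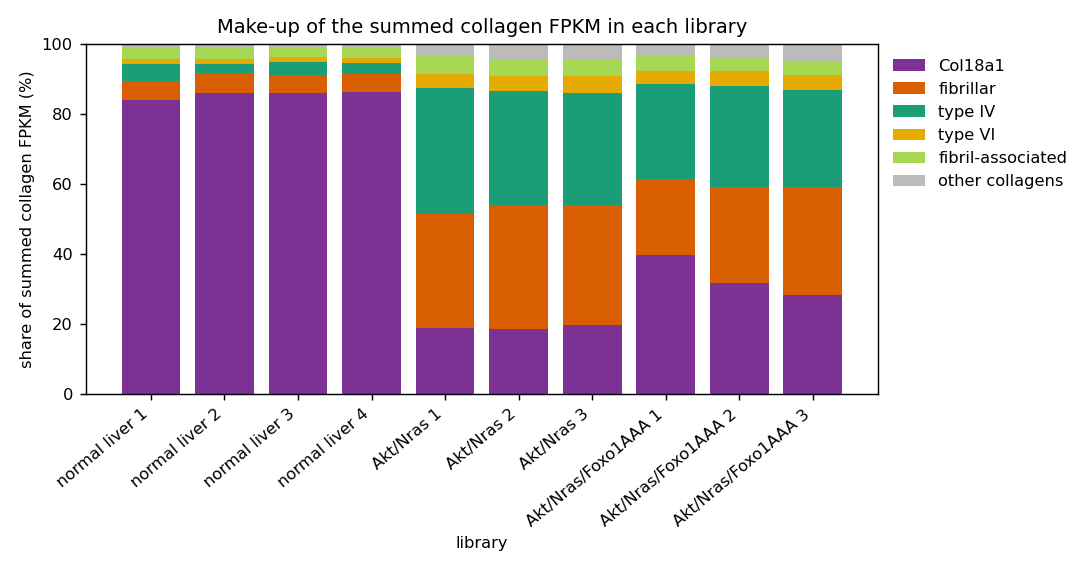
Each bar is 1 library and its segments are the percent of summed collagen FPKM from Col18a1, fibrillar, type IV, type VI, fibril-associated and other chains. Col18a1 takes 83.9 to 86.4% of each normal liver bar and 18.5 to 39.7% of each tumour bar, and fibrillar and type IV chains fill most of the rest in tumours.

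Pairs of chains were also compared within a library, where scaling cancels: 3 pairs that join in 1 trimer, and Col3a1 with Col1a1, which belong to different collagens. The Col1a1 to Col1a2 ratio was 1.65, 1.27, 1.27 and 0.987 in normal liver, 2.99, 2.87 and 2.90 in the Akt/Nras tumours and 2.87, 3.00 and 2.74 in the Akt/Nras/Foxo1AAA tumours. Both tumour types lay above normal liver without overlap, by 1.20 and 1.17 on the log2 scale, and between the tumours the difference was -0.03. The Col3a1 to Col1a1 ratio went the other way, with means of 1.96 ± 0.511 (SD, n = 4) in normal liver, 0.538 ± 0.0581 (n = 3) in the Akt/Nras tumours and 0.509 ± 0.00424 (n = 3) in the Akt/Nras/Foxo1AAA tumours. Col4a1 to Col4a2 averaged 1.23, 1.43 and 1.40, and Col6a1 to Col6a2 averaged 2.35, 1.95 and 1.89. Exact two-sided permutation tests cannot fall below p = 0.0571 for 4 against 3 libraries or 0.1 for 3 against 3, so none of the 12 ratio tests could pass 0.05. The type I ratio reached that smallest p against normal liver in both tumour types (exact permutation p = 0.0571, adjusted over the 12 tests 0.137), and gave p = 0.6 between the tumours (adjusted 0.7). The level of each ratio also rests on the gene lengths used for FPKM, while its difference between groups does not.

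**Figure D3:**
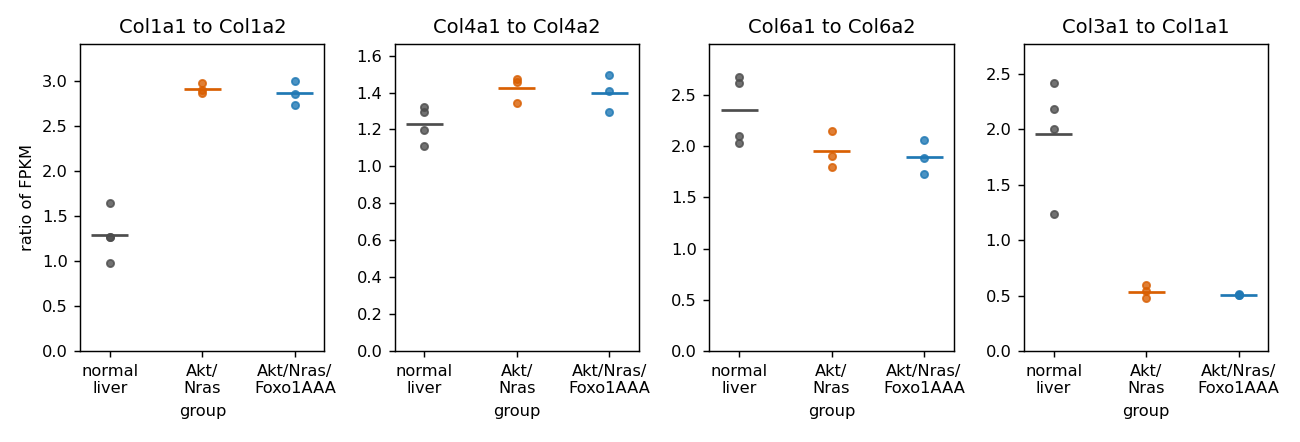
Each point is 1 library and the vertical axis is the ratio of 2 chains' FPKM, with a panel for each of the 4 chain pairs. The Col1a1 to Col1a2 ratio lies between 0.987 and 1.65 in normal liver and between 2.74 and 3.00 in all 6 tumours.

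Of the 4 tested lysyl oxidases, 2 fell with Foxo1AAA and 2 did not pass. Lox, the founding enzyme of the family, had 10 reads over the 4 normal livers (0.125, 0.00, 0.00 and 0.0713 FPKM). It stood at 7.58, 4.27 and 5.06 FPKM in the Akt/Nras tumours and at 1.83, 1.52 and 2.70 in the Akt/Nras/Foxo1AAA tumours, with no overlap. With Foxo1AAA it was 64.2% lower, a log2 change of -1.13 (SE 0.19) and the lowest adjusted p of any member between the tumours (limma, 0.0073). Loxl2, which also acts on basement membrane type IV collagen, stood at 0.193 to 0.619 FPKM in normal liver, 15.1, 6.89 and 8.49 in the Akt/Nras tumours and 4.06, 4.30 and 4.66 in the Akt/Nras/Foxo1AAA tumours, 57.3% lower (log2 -0.997, SE 0.23, limma adjusted p = 0.0218). Akt/Nras replicate 1 held the highest value of both, and both kept their calls without it, but Loxl2 lost its call without Akt/Nras/Foxo1AAA replicate 1 or 2. Loxl1, known for its part in elastic fibres, stood at 5.96, 6.19 and 6.86 FPKM in the Akt/Nras tumours and 5.51, 5.36 and 7.22 in the Akt/Nras/Foxo1AAA tumours, which overlapped (limma adjusted p = 0.738). Loxl3 stood at 1.16, 1.74 and 1.49 FPKM and at 1.16, 1.59 and 2.57, and did not pass either (limma adjusted p = 0.629). Both rose against normal liver, Loxl1 by 6.58-fold and 6.27-fold and Loxl3 by 6.52-fold and 7.92-fold.

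**Figure D4:**
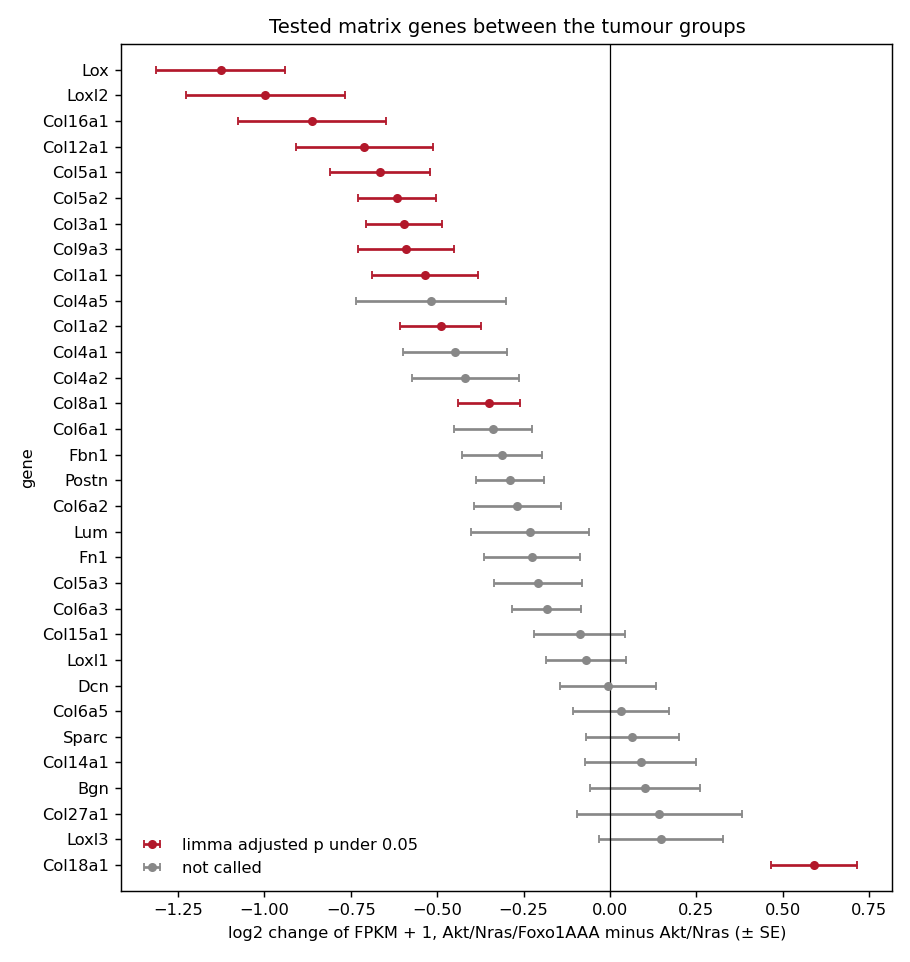
Each point is 1 tested member, placed by its log2 change in Akt/Nras/Foxo1AAA against Akt/Nras tumours on log2(FPKM + 1), with a bar of 1 SE, and red marks a limma adjusted p under 0.05. Lox (-1.13) and Loxl2 (-0.997) lie furthest below 0 and Col18a1 (0.59) furthest above, while Loxl1, Sparc and Dcn lie near 0.

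The matrix glycoproteins rose in tumours and, as deposited, did not pass between them. Sparc, a secreted protein that binds collagen, stood at 20.4, 23.0, 20.4 and 24.3 FPKM in normal liver, 404, 458 and 433 in the Akt/Nras tumours (19.6-fold) and 519, 483 and 365 in the Akt/Nras/Foxo1AAA tumours (20.7-fold), where the tumours overlapped (limma adjusted p = 0.792). Fn1, fibronectin, was already high in normal liver at 187, 186, 181 and 194 FPKM and rose to 560, 467 and 419 (2.58-fold) and to 365, 378 and 496 (2.21-fold), again with overlap between the tumours (limma adjusted p = 0.312). Fbn1, the main protein of microfibrils, averaged 0.205, 3.38 and 2.52 FPKM (3.67, 3.72 and 2.76 against 2.41, 2.23 and 2.93 in the tumours), and Postn, a matricellular protein, 0.333, 2.11 and 1.55. Postn lay lower in every Akt/Nras/Foxo1AAA tumour (1.39, 1.74 and 1.51 against 2.20, 1.98 and 2.15) without passing (limma adjusted p = 0.0842).

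Of the 3 small leucine-rich proteoglycans, 2 rose and Dcn fell in both tumour types, although the direction of Dcn depended on the scaling. Bgn rose from a mean of 16.2 FPKM to 40.4 and 43.7 (2.50-fold and 2.70-fold) and Lum from 4.01 to 9.83 and 8.02 (2.45-fold and 1.998-fold). Bgn stood at 34.8, 41.3 and 45.0 FPKM in the Akt/Nras tumours and 39.8, 37.5 and 53.9 with Foxo1AAA added, and Lum at 6.68, 11.4 and 11.4 and at 7.76, 7.79 and 8.49, so neither separated the tumours. Dcn, which binds type I collagen fibrils, stood at 20.0, 19.6, 19.5 and 25.5 FPKM in normal liver, 13.2, 14.8 and 13.8 in the Akt/Nras tumours and 12.6, 12.2 and 17.2 in the Akt/Nras/Foxo1AAA tumours. It fell 1.52-fold and 1.51-fold (limma adjusted p = 0.0027 and 0.00295), but its direction flipped when all libraries were brought to 1 total (log2 0.36 and 0.11), where it passed as a rise in the Akt/Nras tumours (limma adjusted p = 0.0459) but not with Foxo1AAA added (0.505). Between the tumours none passed, with limma adjusted p of 0.716 for Bgn, 0.407 for Lum and 0.984 for Dcn.

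Genes that make, modify or receive collagen were counted from separate lists. Over all tested genes, 31.1% rose and 37.9% fell in the Akt/Nras tumours, while 7.93% rose and 4.13% fell with Foxo1AAA against Akt/Nras tumours. Of 22 tested genes for collagen processing (of 29), 17 rose and 4 fell in the Akt/Nras tumours, and between the tumours 3 fell with Foxo1AAA (P3h4, Fkbp10 and Fkbp14) and 1 rose (Mia2). Plod2, which makes the hydroxylysine used in stable cross-links, averaged 0.075 FPKM in normal liver, 10.7 in Akt/Nras and 6.53 in the Akt/Nras/Foxo1AAA tumours, which did not pass between the tumours (limma adjusted p = 0.311). Fkbp10, a collagen chaperone, averaged 0.549, 3.92 and 2.13 FPKM and was 45.7% lower with Foxo1AAA (limma adjusted p = 0.0274). Of 12 tested laminins and basement membrane partners (of 16), 11 rose in the Akt/Nras tumours, Lama3 fell, and those that fell with Foxo1AAA included Agrn, Lamb2, Hspg2, Lama5 and Nid2. Agrn, a heparan sulphate proteoglycan, averaged 6.15, 36.9 and 23.2 FPKM (limma adjusted p = 0.0121 between the tumours), while Nid1, which links laminin to type IV collagen, averaged 1.35, 39.0 and 37.2 (0.837). Of 5 tested collagen receptors (of 11), all 5 rose in the Akt/Nras tumours and Ddr1 alone fell with Foxo1AAA, averaging 0.418, 37.4 and 26.6 FPKM (limma adjusted p = 0.0229). Of 23 other matrix glycoproteins and proteoglycans tested (of 31), 15 rose and 4 fell in the Akt/Nras tumours, and 1 fell with Foxo1AAA (Ltbp3).

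Markers of the cell types that can make these genes moved as well. Of 15 tested stellate cell and myofibroblast markers (of 19), 9 rose and 4 fell in the Akt/Nras tumours, where 31.1% of all tested genes rose and 37.9% fell, and their sums were 62.6 to 75.9 FPKM in normal liver, 207 to 257 in the Akt/Nras tumours and 138 to 167 in the Akt/Nras/Foxo1AAA tumours. Between the tumours Vim and Myl9 fell with Foxo1AAA, Vim averaging 104 and 53.9 FPKM, and Colec10 rose, where 4.13% of all tested genes fell and 7.93% rose. Vim alone was thus a large part of the stellate cell and myofibroblast sums in tumours. The median log2 change of the 15 tested markers between the tumours was -0.08, against -0.01 over all tested genes. Acta2, the muscle actin of myofibroblasts, averaged 18.1 and 6.22 FPKM and did not pass (limma adjusted p = 0.0704). Cholangiocyte markers summed to 26.0 to 33.3 FPKM in normal liver, 4305 to 5965 in the Akt/Nras tumours and 2820 to 5556 in the Akt/Nras/Foxo1AAA tumours, and of the 10 tested (of 12) those that fell with Foxo1AAA included Epcam, Cldn7, Prom1, Krt19 and Cftr. Portal fibroblast and mesothelial markers summed to 6.62 to 10.4, 15.9 to 21.3 and 13.1 to 19.3 FPKM, with none of 6 tested (of 9) called between the tumours. Sinusoidal endothelial markers summed to 54.1 to 66.2, 52.6 to 66.3 and 58.3 to 66.0 FPKM, and of the 12 tested 5 rose and 4 fell in the Akt/Nras tumours. Macrophage markers summed to 197 to 331, 327 to 542 and 451 to 500 FPKM, and of the 11 tested 6 rose and 3 fell there. Between the tumours Emcn fell, and Oit3 and the macrophage marker Cd5l rose. No tested marker of these lists was at 0 throughout a group, and the part of these cells in the collagen and lysyl oxidase differences was not tested.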

How the data were processed

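FPKM values of 10 libraries, 1 table of all genes, were used as deposited by the authors. GRCm38 and FastQC 0.11.7 are named per the submitters' processing notes, and the aligner, the counter, the strand setting and the annotation were not given in the sources used here. Only 3 of the 56 members share a start or end with GENCODE M21, an annotation of GRCm38, so the deposited coordinates were not used. Multiplied by gene length, the deposited FPKM values gave whole reads (tolerance 0.02), which were used for depth only. Genes with at least 1 FPKM in at least 3 libraries (12439) were tested with limma 3.58.1 in R 4.3.3 on log2(FPKM + 1), with 1 mean per group over all 10 libraries, a trended prior and Benjamini-Hochberg adjustment over all genes tested, and the threshold was an adjusted p of 0.05. Folds in the text are ratios of mean FPKM, and log2 changes are on the log2(FPKM + 1) scale, which understates the change of low genes. Chain ratios were tested with SciPy 1.17.1. Per-library values or group ranges were given for up to 4 tested members of each role with the highest mean, for members called between the tumours or lower than in normal liver, and for the 3 largest increases. Members and lists were chosen with earlier results of these data known, and the CCAAT motif was added after the data were seen. The labels do not say that replicates came from separate mice, and each p-value reflects only how far these libraries spread, which may be technical. Alternatives were the pseudocount, the filter, the scaling, array weights, the replicate block, the groups in the fit and leaving out each library.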

Additional observations from a re-analysis of the deposited data

Results flagged for a closer look

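In normal liver 1 library stood apart from the other 3 for 4 of the 31 members examined, where chance alone sets about 1 in 20 groups apart. The gap to the nearest library, as a share of the whole range of the 4, was 0.924 for Dcn (25.5 FPKM in replicate 4), 0.901 for Col6a2 (0.966 FPKM in replicate 3), 0.887 for Col1a1 (2.60 FPKM in replicate 1) and 0.831 for Lum (4.77 FPKM in replicate 4). Each passed Dixon's critical value for 4 samples. Tumour groups of 3 were not examined in this way.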

How the results depend on the processing

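Against normal liver there were 28 rises and 3 falls in each tumour type. A minimum of 5 FPKM, which tests fewer genes, left 16 rises in each tumour type (5372 and 5027 of all genes called). With no filter, Col17a1 and Col20a1 were added for 5 falls in Akt/Nras tumours, and Col20a1 for 4 in Akt/Nras/Foxo1AAA tumours. Libraries at 1 total, or the 50 highest genes taken out of the totals, left 2 falls in each. Leaving out 1 library gave 28 rises throughout, 3 to 4 and 3 falls, and 8007 to 8595 and 7138 to 8100 genes called. Direction turned for Col14a1 (log2 0.63 and 0.49) and Dcn (0.36 and 0.11) with libraries at 1 total. Once the 50 highest genes were taken out of the totals, it turned for Dcn in Akt/Nras tumours (0.11) and for Col14a1 in both tumour types. Col14a1 then stood at log2 0.39 and 0.38 without passing (limma adjusted p = 0.0519 and 0.0614). Between the tumours the 11 falls became 5 with a pseudocount of 0.1, 4 with no filter, 7 with a minimum of 5 FPKM, 21 with libraries at 1 total (5.27% of all genes rose and 26% fell), 0 with only the tumours fitted, and 4 to 11 with 1 library left out (7 without Akt/Nras replicate 1, 6 without 2, 7 without 3, 5 without Akt/Nras/Foxo1AAA replicate 1 and 4 without 2). The single rise was 0 with only the tumours fitted and 0 to 1 with 1 library left out. All genes called, 1500, became 923 with no filter, 3890 with libraries at 1 total, 3668 with array weights, 10 with only the tumours fitted, and 550 to 1953 with 1 library left out (901 without Akt/Nras replicate 1, 550 and 632 without Akt/Nras/Foxo1AAA replicates 1 and 2). With the replicate block 3 falls (Lox, Col3a1 and Col5a2), 0 rises and 468 genes remained called. Same-numbered libraries correlated from -0.17 to 0.112 over 9 pairs, and 6 of 18 checks placed a library closest to its own number. With so few libraries per group, these correlations cannot tell whether equal numbers mark a shared mouse, day or batch. The labels do not say so either. Differences of chain ratios between the tumours changed sign as 1 library was left out: -0.0589 to 0.00697 for Col1a1 to Col1a2, -0.0760 to 0.0267 for Col4a1 to Col4a2 and -0.106 to 0.0283 for Col6a1 to Col6a2. Apart from the effect of testing fewer genes or samples, the cause was not tested. Counts of 8 reads (Col9a3) and 10 reads (Lox) over the normal livers limit those folds.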
